A study of Mus musculus with 8 samples.

Results

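Upper-layer callosal neuron identity factors are described here: the homeodomain factors Cux1, Cux2, Pou3f1, Pou3f2 and Pou3f3, the MADS-box factor Mef2c, the basic helix-loop-helix factor Bhlhe22 and the Ras exchange factor Rasgrf2. They were chosen by name. The list held 9 names, of which 8 are gene symbols and "Inhbb-none" is not one, so no value was sought under it. A gene was measured where an array probe set named it alone, and of several probe sets the brightest by its mean over all 8 arrays stood for the gene. This gave 7 genes of the 19938 measured in the series, and Bhlhe22 was not analysed here.

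The tissue was neocortical layers II-IV, cut by laser microdissection from mouse pups at postnatal day 5, with 1 Affymetrix Mouse Gene 1.0 ST array per pup. The 4 control pups were Bcl6 flox/flox;Nex +/+, and the 4 mutant pups were Bcl6 flox/flox;Nex Cre/+, so both groups carry floxed Bcl6 and only the mutants carry Cre. Nex is an older name of Neurod6, a gene of postmitotic excitatory cortical neurons, and Cre in its locus is known to act in those neurons but not in interneurons, glia or vessels, which keep intact Bcl6. Bcl6 encodes a zinc-finger repressor, and the series title links it to cell death of projection neurons during cortical development. The comparison of the genotypes is read here for the genes that give upper-layer neurons their identity.

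Neurons of layers II and III send axons through the corpus callosum to the other hemisphere, and layer IV neurons receive thalamic input. Cux1 and Cux2 are CUT-domain homeobox factors of layers II-IV that act on dendrite branching, spines and synapses. Pou3f2 (Brn2) and Pou3f3 (Brn1) are paired POU factors that drive the production and migration of upper-layer neurons, and Pou3f1 (Oct6, SCIP) is their relative in cortical projection neurons. Mef2c regulates activity-dependent genes and synapse number, and Bhlhe22 (Bhlhb5) is a transcriptional repressor that acts in area identity and axon targeting. Rasgrf2 is a calcium-regulated activator of Ras and Rac used as a layer II-III marker.

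The BCL6 protein is known to bind DNA resembling TTCCTAGAA. In RefSeq windows of GRCm38.p6, each of 300 bases (250 before to 50 after a transcription start), 9 windows belonged to 6 of the measured members, and Pou3f1 had none. The letters TTCCTAGAA, searched on both strands, were in 0 of these 9 and in 0.411% of the 32851 windows of all genes. The looser form TTCCNNGAA, which includes the first, was in 1 of the 9 and in 4.81% of all windows, and TTCNNNGAA, a palindrome shared with STAT factors that includes both, was in the same number, 1 of 9, against 8.3% of all windows. That window spans the first of 3 Mef2c starts, at chr13:83503784-83504083 on the plus strand. It is shown because it is the member window with a match, which begins at position -157 from the transcription start and is in capitals. The match reads TTCCNNGAA on the minus strand. It is a match of letters, and binding was not measured.

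Mef2c: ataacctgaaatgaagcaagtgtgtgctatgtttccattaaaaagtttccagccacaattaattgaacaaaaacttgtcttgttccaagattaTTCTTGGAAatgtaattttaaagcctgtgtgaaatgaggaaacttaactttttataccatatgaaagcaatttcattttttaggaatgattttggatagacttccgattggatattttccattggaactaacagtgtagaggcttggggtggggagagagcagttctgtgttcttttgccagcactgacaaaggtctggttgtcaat

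Values are the deposited log2 expression per probe set, and a difference is mutant minus control on that scale. Levels of different genes are compared only roughly, as high or low, because probe sets differ in how strongly they bind. Array medians lay between 4.94 and 5.01. Excitatory neuron markers (Slc17a7, Neurod2, Neurod6, Camk2a, Emx1) had control means between 7.21 and 10.24 and 5 skeletal muscle genes between 3.61 and 5.37. Bcl6 read 6.40 ± 0.18 in controls and 6.78 ± 0.14 in arrays labelled mutant (SD, n = 4), higher and without overlap, which is not the direction of a deletion. Where its probe set lies relative to the floxed exons is not given, so the deletion cannot be judged from it. Neurod6, the gene that carries the Cre allele, read 9.22 ± 0.13 in controls and 8.83 ± 0.17 in arrays labelled mutant, also without overlap. Because the Bcl6 values do not show the deletion, "mutant" means labelled mutant throughout, and every direction rests on the labels.

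Some arrays stand apart. Mutant replicates 1 and 4 had Xist values of 9.78 and 9.76, against 2.64 to 3.41 elsewhere, so those mutants are female by this marker while all 4 controls have low Xist. Control replicate 4 was low in the members: it held the lowest of the 8 values in 5 of the 7 genes, while it holds the lowest value in 14.8% of all genes. That array was picked from these same member values, so the contrast describes it and tests nothing. Differences are given below with and without these arrays.

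None of the 7 members passed the test between the genotypes in limma, a linear model fitted over all genes. With an adjusted p under 0.05 as the threshold, 0 of 7 passed, against 13 of 19938 genes (0.0652%). At an unadjusted p under 0.05 it was also 0 of 7, against 4.91% of all genes. The limma adjusted p was 0.9995 for each of the 7. Mutant and control values overlapped in all 7, whereas groups without overlap made up 2.75% of all genes. The differences ran from -0.05 (Mef2c) to 0.18 (Rasgrf2), 4 positive and 3 negative. Their median was 0.0061 against -0.0096 over all genes, and the median size regardless of sign was 0.047 against 0.051.

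**Figure D1:**
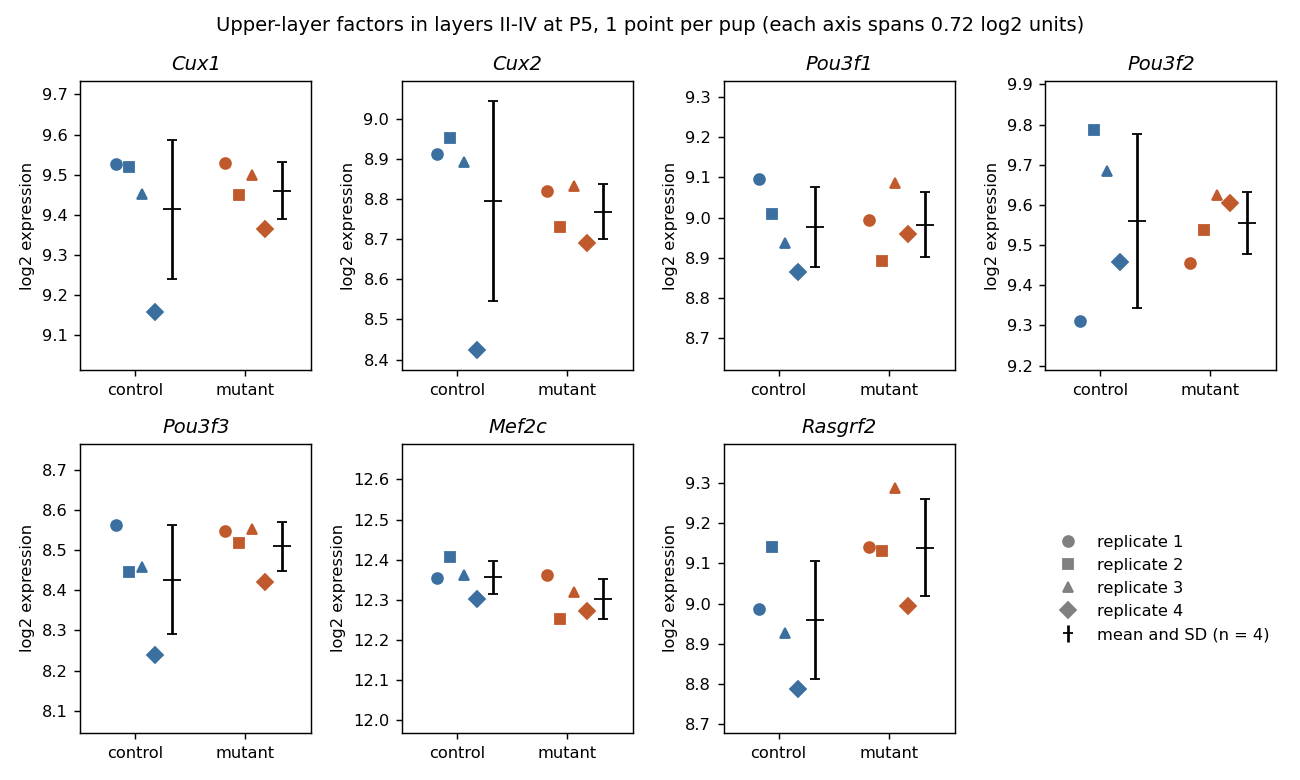
Deposited log2 expression (y axis, 0.72 log2 units in every panel) of the 7 measured genes in 4 control and 4 mutant pups (x axis), a point per array with its replicate shown by shape, and black bars for the group mean and SD. The groups overlap in every panel, and control replicate 4, the blue diamond, lies lowest of all 8 arrays in Cux1, Cux2, Pou3f1, Pou3f3 and Rasgrf2.

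Cux1, the CUT factor found through layers II-IV, read 9.53, 9.52, 9.45 and 9.16 for control pups numbered 1 to 4 and 9.53, 9.45, 9.50 and 9.37 for the mutant pups so numbered. Control replicate 4 was below every other array, the other controls lay between 9.45 and 9.53, and the mutants spanned 9.37 to 9.53, replicate 4 being the lowest mutant. The means were 9.41 ± 0.17 and 9.46 ± 0.07 (SD, n = 4), a difference of 0.05 ± 0.09 (SE; exact permutation p = 0.771, two-sided). The 95% interval of the difference ran from -0.14 to 0.23, so mutants between 1.10-fold lower and 1.18-fold higher lie within it. Without control replicate 4 the direction turned, to -0.04 ± 0.07.

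Cux2, its paralog and the more restricted upper-layer marker, read 8.91, 8.95, 8.89 and 8.42 in the controls and 8.82, 8.73, 8.83 and 8.69 in the mutants. Control replicates 1 to 3 lay above all 4 mutants and replicate 4 lay below them all. The control SD was accordingly wide, 0.25 against 0.07 in mutants, and the pooled spread within the genotypes was larger than that of 96.9% of the 1595 genes within 0.5 of its level. The difference was -0.03 ± 0.11 (SE; exact permutation p = 0.886, two-sided; 95% interval -0.26 to 0.20, or 1.19-fold lower to 1.15-fold higher). Without control replicate 4 it was -0.15 ± 0.07 with a limma adjusted p of 0.999, so that 1 control array sets the size of this difference.

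Among the POU factors, Pou3f1 read 9.10, 9.01, 8.94 and 8.86 in the controls and 8.99, 8.89, 9.09 and 8.96 in the mutants. The genotypes covered nearly the same range, with a difference of 0.01 ± 0.07 (SE; exact permutation p = 0.914, two-sided; 95% interval -0.15 to 0.16). Without control replicate 4 it was -0.03 ± 0.08, again within its error.

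Pou3f2 had 2 probe sets. The one used, with the higher mean, read 9.31, 9.79, 9.68 and 9.46 in the controls and 9.45, 9.54, 9.62 and 9.61 in the mutants. The controls spread on both sides of the mutants, and replicate 1 was the low control here, not replicate 4. The difference was -0.004 ± 0.098 (SE; exact permutation p = 0.943, two-sided; 95% interval -0.22 to 0.21), and -0.04 ± 0.11 without control replicate 4. The other probe set read 9.39, 9.29, 9.43 and 9.30 in the controls and 9.43, 9.14, 9.36 and 9.41 in the mutants, a difference of -0.02 ± 0.08. The probe sets disagree on which arrays are low: replicate 1 was the lowest control in one and the second highest in the other, so the order of single arrays is uncertain for Pou3f2 while neither shows a difference beyond its error.

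Pou3f3, which shares the roles of Pou3f2, read 8.56, 8.45, 8.46 and 8.24 in the controls and 8.55, 8.52, 8.55 and 8.42 in the mutants. Mutants were above the control mean in 3 of 4 cases, and control replicate 4 was again the lowest array. The difference of 0.08 ± 0.08 (SE; exact permutation p = 0.371, two-sided; 95% interval -0.08 to 0.25) fell to 0.02 ± 0.07 without that array. The range of the interval corresponds to mutants between 1.06-fold lower and 1.19-fold higher.

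Mef2c read 12.35, 12.41, 12.36 and 12.30 in the controls and 12.36, 12.25, 12.32 and 12.27 in the mutants. These values lie in the upper part of the deposited scale, whose highest value is 13.63, and the whole range over the 8 arrays was 0.15. The difference was -0.05 ± 0.06 (SE; exact permutation p = 0.200, two-sided; 95% interval -0.19 to 0.08), and 1 of 4 mutants was above the control mean. It was -0.07 ± 0.07 without control replicate 4. Interneurons, microglia and endothelium also express Mef2c, so in this bulk tissue fewer cells of a type and less RNA per cell cannot be told apart, for this gene or the others. Their markers gave 0 calls (0 of 8, 0 of 6 and 0 of 5), with median differences of 0.0037, -0.038 and 0.011. At an unadjusted p under 0.05 limma had 0, 1 and 0 of them, the 1 being P2ry12 of microglia (-0.27 ± 0.10, SE). Their part in the Mef2c value was not tested.

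Rasgrf2 showed the widest difference of the 7. It read 8.99, 9.14, 8.93 and 8.79 in the controls and 9.14, 9.13, 9.29 and 8.99 in the mutants. All 4 mutants were above the control mean, and the groups overlapped because control replicate 2 was as high as mutant replicates 1 and 2. The means were 8.96 ± 0.15 and 9.14 ± 0.12 (SD, n = 4), a difference of 0.18 ± 0.09 (SE) or 1.13-fold (exact permutation p = 0.143, two-sided). The 95% interval ran from -0.01 to 0.37, so a 1.29-fold rise lies at its upper end and a fall of more than 1.01-fold lies outside it. The difference was 0.12 ± 0.09 without control replicate 4 and 0.25 ± 0.11 without the 2 mutants of high Xist, and the limma adjusted p was at least 0.819 in each of the 17 alternatives run for this gene.

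**Figure D2:**
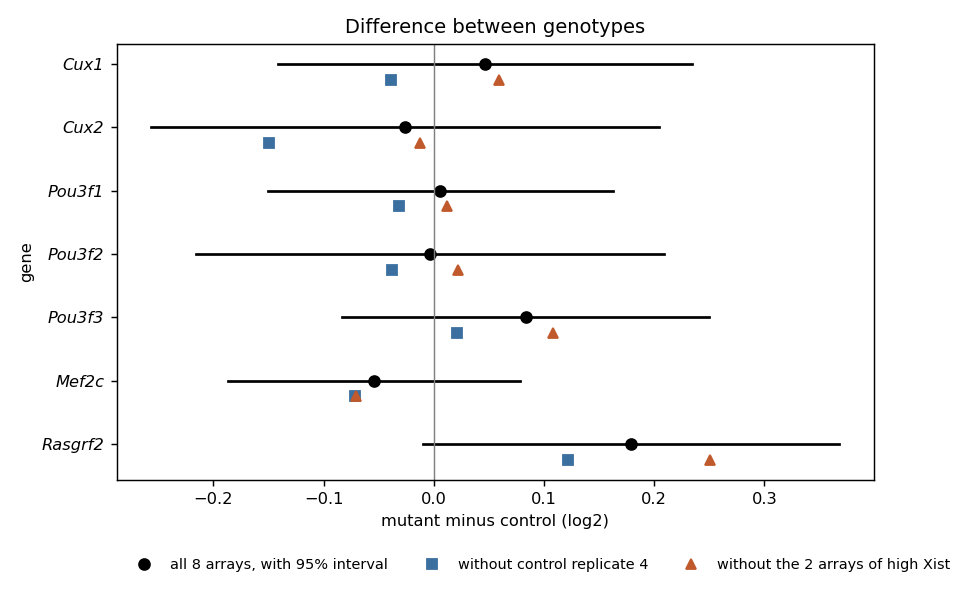
Mutant minus control difference (x axis, log2) for the 7 measured genes (y axis), with black points and lines for all 8 arrays and the 95% interval, blue squares without control replicate 4 and orange triangles without the 2 mutant arrays of high Xist. Every interval includes 0, and leaving out control replicate 4 moves Cux1 from 0.05 to -0.04 and Cux2 from -0.03 to -0.15.

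The 2 female mutants were left out to compare arrays of low Xist only. The differences then were 0.06 ± 0.11 (SE) for Cux1, -0.01 ± 0.14 for Cux2, 0.01 ± 0.10 for Pou3f1, 0.02 ± 0.13 for Pou3f2, 0.11 ± 0.10 for Pou3f3 and -0.07 ± 0.08 for Mef2c. With 4 controls and 2 mutants, limma gave 0 of 7 calls, with 1 at an unadjusted p under 0.05 (Rasgrf2). Sex and genotype are thus partly mixed over the 8 arrays.

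The members shared a pattern across arrays that the genotype did not follow. In control replicate 4 all 7 were below their own mean over the 8 arrays, by 0.195 on average, and in mutant replicate 4 it was 6 of 7, with an average of -0.042. In control replicate 2, mutant replicate 1 and mutant replicate 3, 6 of the 7 were above their mean. The median gene over all genes tested did not share this, with a deviation of 0.000 in control replicate 4 and from -0.015 to 0.032 in the other arrays.

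**Figure D3:**
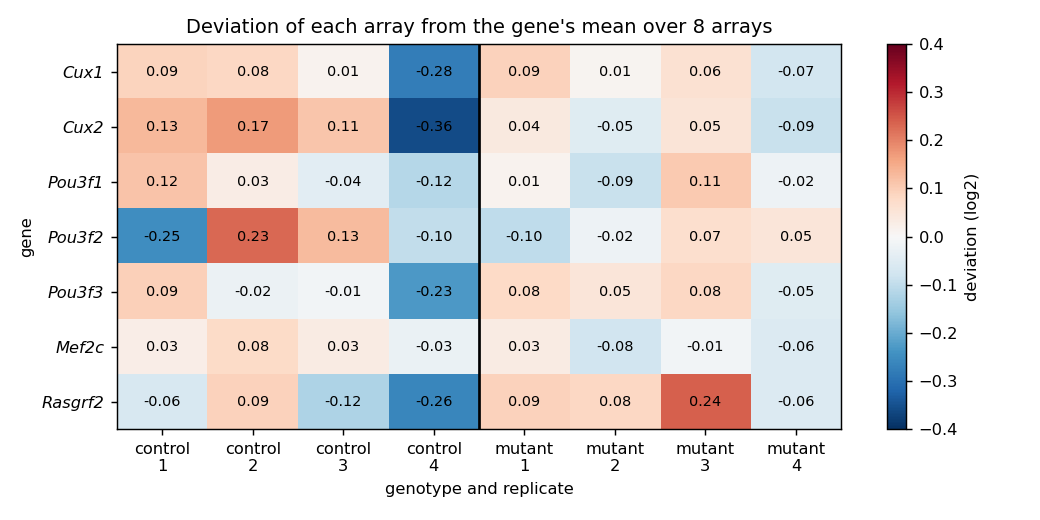
Deviation of each array (x axis, genotype and replicate) from the mean of the gene over the 8 arrays (colour and printed value, log2) for the 7 measured genes (y axis). Control replicate 4 is below the mean in all 7 rows, from -0.36 for Cux2 to -0.03 for Mef2c, and no such column is seen for a genotype as a whole.

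Control replicate 4 was set against the mean of the other 3 controls in each gene list, as a description of that array. The 7 members were lower by 0.07 (Mef2c) to 0.49 (Cux2), with a median of -0.23. Of 30 other genes of layers II-III and callosal neurons, 24 were lower, with a median of -0.13, while 52.8% of all genes were lower, with a median of -0.0094. Plxnd1, a semaphorin receptor of callosal neurons, was lower by 0.952 (7.39 against 8.15, 8.57 and 8.31 in control replicates 1 to 3). Rorb, the nuclear receptor that marks layer IV, was lower by 1.09 (9.35 against 10.48, 10.50 and 10.32). Satb1, a CUT-family chromatin organiser, was lower by 0.493 (10.35 against 10.73 to 10.90). Mutant replicate 4 was also the lowest mutant for Rorb (9.81 against 10.33 to 10.50) and Plxnd1 (7.88 against 8.19 to 8.40). These genes were named after their values were seen. Not all such genes were low: Calb1 and Id2, both in the layer II-III list, read 0.34 higher than in the other controls.

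Markers of other cells moved in the same array. All 8 interneuron markers were higher in control replicate 4 than in the mean of the other controls, by 0.022 to 0.622 with a median of 0.13, and Sst, a peptide of one interneuron class, was the one at 0.622. Against the mean over all 8 arrays the median interneuron marker was 0.126 higher in mutant replicate 4 and 0.090 higher in control replicate 4, the highest values of the 8. Control replicate 3 was next at 0.076, while the median member deviated there by 0.014. In control replicate 4 against the other controls, 3 of the 5 excitatory neuron markers were lower (median -0.093). Of 9 genes of the layer IV list 7 were lower (median -0.091). The 17 deep-layer genes were lower in 9 cases (median -0.035). Of the markers of microglia, endothelium and astrocytes, 1 of 6, 1 of 5 and 2 of 6 were lower, with medians of 0.059, 0.048 and 0.037. Markers of mural cells and meninges were lower in 3 of 5 (median -0.15), and those of the oligodendrocyte lineage were lower in 2 of 5 (median 0.034). The part of these shifts in the low member values of that array was not tested.

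**Figure D4:**
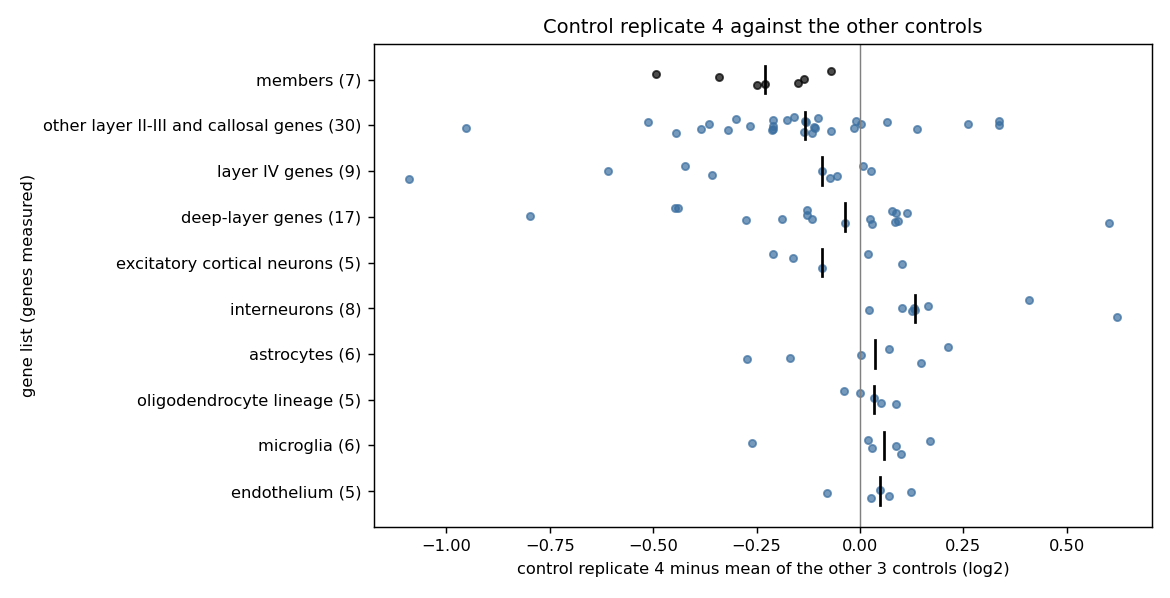
Control replicate 4 minus the mean of the other 3 control replicates (x axis, log2) for every measured gene of 10 lists (y axis, number measured in parentheses), each point a gene and each tick the median. The members have a median of -0.23 and the layer II-III and callosal list one of -0.13, while all interneuron markers lie above 0.

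Relatives and partners of the members were read from fixed lists, which include the members of each family. Of 10 POU-homeodomain genes measured, 0 passed the threshold in limma and 1 had an unadjusted p under 0.05, with a median difference of -0.0071. That gene was Pou5f1, a pluripotency factor with a level of only 3.60 in controls (-0.28 ± 0.12, SE). Pou3f4, the fourth class III POU factor, read 6.99 ± 0.10 in controls and 6.85 ± 0.16 in mutants (SD, n = 4), a difference of -0.14 ± 0.09 (SE), and Pou4f1, a factor of sensory neurons, -0.14 ± 0.08. Pou3f3 stood next in p, with the 0.08 given above.

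Of 6 CUT-domain genes measured, 0 passed and 0 had an unadjusted p under 0.05 in limma (median 0.0085). Satb1 read 0.12 ± 0.12 (SE), Onecut1, a factor of other parts of the nervous system, -0.08 ± 0.08 and Onecut2 0.03 ± 0.08. The Satb1 difference carried the array pattern described above, since its lowest value of all was control replicate 4.

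The MEF2 list held 3 MEF2 factors and 4 class IIa histone deacetylases, which bind MEF2 proteins and repress their targets. In limma 0 of 7 passed and 1 had an unadjusted p under 0.05 (median -0.054). That gene, Hdac9, read 8.08, 8.36, 8.19 and 8.22 in the controls and 7.87, 7.78, 7.82 and 7.92 in the mutants, without overlap between the groups. Its difference was -0.36 ± 0.07 (SE), with an exact permutation p of 0.0286 (two-sided), the smallest that 4 against 4 arrays allow, and a limma adjusted p of 0.265. The MEF2 factors themselves were closer together: Mef2d read -0.06 ± 0.09 and Mef2a -0.0045 ± 0.0655, and Hdac7 read -0.06 ± 0.08.

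Bhlhe22 itself has no value here. Its relatives, a partner and a target gave 0 calls among 6 genes, with 0 at an unadjusted p under 0.05 in limma (median -0.026). Prdm8, which acts with Bhlhe22 in one repressor complex, read 10.16, 10.18, 10.25 and 10.06 in the controls and 10.11, 9.95, 10.16 and 9.97 in the mutants. The groups overlapped, and the difference was -0.12 ± 0.07 (SE; exact permutation p = 0.143, two-sided). Olig1, a factor of the oligodendrocyte lineage, read 0.14 ± 0.09, while Bhlhe23 (-0.12 ± 0.10) and Olig3 (0.10 ± 0.10) had low control levels of 4.12 and 2.59.

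Among 11 Ras exchange factors 0 passed and 0 had an unadjusted p under 0.05 in limma (median 0.022), Rasgrf2 being the one of smallest p. Its paralog Rasgrf1 read -0.06 ± 0.07 (SE) at a control level of 4.24. Rasgef1c and Rasgef1a, exchange factors with a like catalytic domain, read 0.14 ± 0.08 and -0.12 ± 0.08, in opposite directions.

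The wider list of 30 other layer II-III and callosal genes gave 0 calls in limma and a median of -0.012. At an unadjusted p under 0.05 there were 2, 1 in each direction. Dkk3, a secreted protein of the Dickkopf family, read 7.46, 7.38, 6.96 and 7.27 in the controls and 7.65, 7.59, 7.49 and 7.68 in the mutants, without overlap. Its difference was 0.33 ± 0.10 (SE), with a limma adjusted p of 0.815. Lpl, lipoprotein lipase, differed the other way by -0.24 ± 0.11, with control replicate 4 at 9.24 below 3 of the mutants. Lmo4, a LIM-only cofactor of callosal neurons, read 0.16 ± 0.10 and the calcium-binding protein Calb1 -0.20 ± 0.13.

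In the neighbouring lists, 1 of the 9 measured genes of the layer IV list passed the threshold. That gene was the cadherin Cdh8, which was lower (-0.63 ± 0.08, SE, limma adjusted p = 0.0217). It was not called in 6 of 17 alternatives, namely without the arrays of high Xist (adjusted p = 0.0548), control replicate 1 (0.0945), control replicate 3 (0.0704), control replicate 4 (0.0658), mutant replicate 2 (0.063) or mutant replicate 4 (0.0612), while its lowest adjusted p was 0.00151. Zbtb16 (-0.26 ± 0.06), Tmem215 (-0.23 ± 0.10), Il1rapl2 (0.18 ± 0.15) and Scnn1a (-0.05 ± 0.09) did not pass. At an unadjusted p under 0.05 limma had 3 of the 9, all lower (Cdh8, Zbtb16 and Tmem215), against 4.91% of all genes. The groups did not overlap in 2 of the 9, Cdh8 and Zbtb16, against 2.75% of all genes. This list, like the others, was chosen with earlier results of these data known, so these shares are no test of layer IV genes. Rorb of the same list read 0.10 ± 0.23 (SE), and differences were positive in 3 of the 9 and negative in 6. Of 17 deep-layer genes 0 passed limma, and 3 had an unadjusted p under 0.05: Ldb2 (0.80 ± 0.15), Tbr1 (0.17 ± 0.07) and Crym (-0.22 ± 0.10). Ldb2, a LIM-domain cofactor with an adjusted p of 0.197, passed in 2 of 17 alternatives, without control replicate 4 (0.95 ± 0.12, limma adjusted p = 0.0361) and with a trend in the prior (0.0448), and its highest adjusted p was 0.998. Fezf2 read 0.30 ± 0.17. Median differences were -0.043 and 0.026, and whether the upper-layer members differ from these lists was not tested. Differences in size regardless of sign had a median of 0.095 in the layer IV list and 0.13 in the deep-layer list, against 0.047 for the members.

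**Figure D5:**
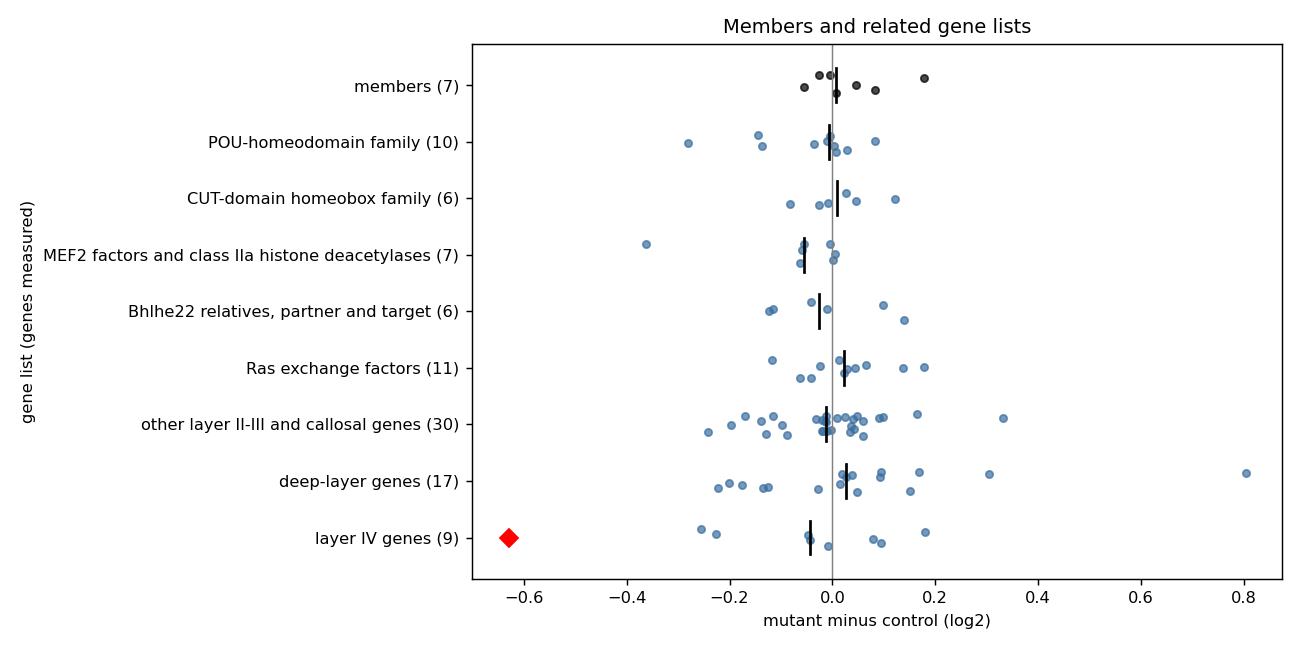
Mutant minus control difference (x axis, log2) for the 7 members and for every measured gene of 8 related lists (y axis, number measured in parentheses; family lists include their members), each point a gene, each tick the median and the red diamond a gene past the limma threshold. The members lie between -0.05 and 0.18, and the diamond is Cdh8 of the layer IV list.

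For each member the gene of most similar profile was found as the smallest root mean square difference between log2 profiles over the 8 arrays, each centred on its own mean. These were Zzef1 for Cux1 (0.030), Nos1 for Cux2 (0.052), Casp9 for Pou3f1 (0.029), Gtpbp6 for Pou3f2 (0.046), Adgrl2 for Pou3f3 (0.029), Clasp2 for Mef2c (0.019) and Cracd for Rasgrf2 (0.044). The 8 arrays are shared by all of these profiles. A small distance is common for flat genes: 7906 genes lay within 0.1 of Mef2c, 4806 of Pou3f1, 2425 of Pou3f3 and 2008 of Cux1, against 408 of Rasgrf2, 417 of Cux2 and 328 of Pou3f2. The last 3 are the members whose values ranged most over the arrays, by 0.50, 0.53 and 0.48. Adgrl2, a latrophilin receptor, differed by 0.093 between genotypes and Cracd by 0.15, against 0.083 for Pou3f3 and 0.18 for Rasgrf2. Nos1, the neuronal nitric oxide synthase, differed by 0.00030. The genotype difference is part of the profile that was matched, so its likeness follows from the choice and is no separate result.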

How the data were processed

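Total RNA of 8 samples was hybridised to Affymetrix arrays, 1 per pup. The authors deposited log2 values for 35556 probe sets, made with BRB-ArrayTools per the labels' protocols. Background, scaling and summarization steps were not given in the sources used here, and log2 was read from the values (0.74 to 13.63). No detection calls were used, and the number of arrays limits the precision.

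Gene names came from the platform annotation, with symbols of GRCm38.p6 through the Entrez identifier (21698 of 21789 probe sets naming 1 gene matched). Those naming 1 gene gave 19938 genes, 999 of them with several probe sets. The genotypes were compared by limma 3.58.1 under R 4.3.3 (lmFit, eBayes, no other term, two-sided). Benjamini-Hochberg adjustment ran over all genes, and 0.05 was the threshold. Single values were also tested by an exact permutation test, and the fit was tested on simulated data. Members and lists were chosen with earlier results of these data known. Named by rule were all members, genes of each list past the threshold plus the 4 others of smallest p, and the nearest profile of each member. Bcl6, Neurod6, Xist and the excitatory markers were also named. Outside the rule, Mef2a, P2ry12, Sst, Plxnd1, Rorb and Id2 are named as well. Alternatives were quantile normalization, median centring, a filter on genes with a mean of 5 or less, a trend or robust prior, weighted arrays, a block for the replicate number, averaged probe sets, leaving out the arrays of high Xist or each array, and, chosen after seeing the data, the other Pou3f2 probe set.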

Additional observations from a re-analysis of the deposited data

Results flagged for a closer look

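A value far from the other 3 of its group was looked for in 38 of the named genes, 76 groups in all, and chance flags about 1 in 20 groups. It was found in 3. Cux2 in control replicate 4 read 8.42, against 8.89 to 8.95 in the other controls. Neurod6 in control replicate 2 read 9.41, against 9.15 to 9.17 in the other controls. Rasgef1c in mutant replicate 4 read 6.64, against 6.42 to 6.44 in the other mutants. Of the 14 groups of the members, the Cux2 controls were the one found.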

How the results depend on the processing

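Members past the threshold numbered 0 in limma in every alternative run. At an unadjusted p under 0.05 there was at most 1 of 7, Rasgrf2, in 7 of its 17 alternatives. Pou3f3, Mef2c and Rasgrf2 kept their direction in all 17 alternatives. Pou3f2 turned positive after quantile normalization (0.0121), median centring (0.0078), array weights (0.0053) and without the arrays of high Xist (0.0218), all within its error. With 1 array left out, the differences ran from -0.0384 to 0.084 for Cux1, -0.15 to 0.0263 for Cux2, -0.0312 to 0.0456 for Pou3f1 and -0.0869 to 0.0721 for Pou3f2. Over all genes 10 rose and 3 fell, while 326 were higher and 653 lower by an unadjusted limma p under 0.05 (480 and 462 after quantile normalization). Of these counts the higher one was 4 with the replicate block and 2 without the arrays of high Xist. The lower one was 1 after quantile normalization, median centring or the replicate block and 0 without the arrays of high Xist (347 higher and 562 lower by the unadjusted p in limma). With 1 array left out they ran from 3 to 9 and from 0 to 4, and where that count was 0, limma put 268 to 382 genes higher and 569 to 722 lower by the unadjusted p. The cause was not tested. Replicate numbers are not said to pair pups: deviations of same-numbered arrays correlated by -0.0122 to 0.159, and 3 of 8 arrays correlated best with their own number. Under the block 0 members were called.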
